A study of Mus musculus with 5 samples.

Results

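The shared and private chains of the common gamma and gp130 cytokine receptors were examined in CD4 SP cells, the maturing thymocytes that keep CD4 and no longer carry CD8. The members were 8 genes chosen by name out of 55487 counted genes: *Il2rg*, *Il7r*, *Il2rb*, *Il15ra*, *Il4ra* and *Il21r* of the common gamma family, and *Il6ra* and *Il6st* of the gp130 family. RNA came from sorted CD24-low, TCRβ+, CD4+, CD8- thymocytes that did not bind the CD1d tetramer, with 1 library for each of 3 wild type (WT) mice and 2 mice lacking *Tet2* and *Tet3* (*Tet2/3* DKO, written DKO below). The genotype of the latter was Tet2-/-Tet3flx/flxCD4cre, with *Tet2* deleted in all cells and a Cre driven by *Cd4*, which removes *Tet3* in T lineage cells from the stage at which *Cd4* is first expressed. The labels name no Cre for the WT mice. All mice were C57BL/6J and 21 to 30 days old.

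Each of these receptors is built from a shared signalling chain and a private chain that selects the ligand. The common gamma chain, encoded by *Il2rg*, carries JAK3 and pairs with private chains that carry JAK1 to read IL-2, IL-4, IL-7, IL-9, IL-15 and IL-21, mainly through STAT5, STAT6 and STAT3. In the thymus IL-7 is needed early for survival and growth, its receptor is shut off in double-positive cells and it returns after positive selection. The chain gp130, encoded by *Il6st*, is shared by receptors for IL-6, IL-27, LIF and oncostatin M and signals through JAK1 and STAT3, and it answers IL-6 only where the IL-6 receptor alpha chain, encoded by *Il6ra*, is present on the cell or in soluble form.

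The libraries held between 17607089 and 27267031 reads counted on genes. The targeted gene *Tet3* stood at 43.8, 45.6 and 52.5 CPM (counts scaled to library size by TMM) in the WT libraries, against 20.0 and 13.1 in those of the DKO mice. *Tet2* stood at 52.4, 54.2 and 57.8 CPM against 91.5 and 58.6, and counts over a whole gene do not test a deletion of part of it. The library of DKO replicate 1, labelled male, had 744 counts of *Xist* and 7 of 4 Y-linked genes, and WT replicate 1, labelled female, had 0 and 6821, so that both went against their sex labels. The study describes all of these mice as male, which leaves DKO replicate 1 alone at odds with them. Whether labels or samples were exchanged was not tested, and the groups were kept as labelled. DKO replicate 1 also had the largest share of uniquely mapped reads on no annotated feature, 6.45% against 3.94% to 4.16% in the other libraries. Of the markers of a CD4 SP cell, *Cd4*, *Cd3e*, *Cd5*, *Trbc2* and *Zbtb7b* were found in every library, with a summed level of 3443 to 3603 CPM in WT and of 2732 and 2749 in DKO, and *Cd4*, *Cd5* and *Zbtb7b* fell. *Rag1* was at 0 in every library. The DKO libraries were less alike (Pearson r = 0.971 over the log2 CPM of 13525 genes) than any pair of WT libraries (0.989 to 0.991).

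Of the 8 receptor chains, *Il6ra* fell in the DKO libraries, to 0.539 of its WT mean, and the other 7 did not pass edgeR's test. No chain rose past the threshold in edgeR, DESeq2 or limma voom, although 3 that were higher (*Il15ra*, *Il2rb* and *Il4ra*) had an unadjusted p below 0.05. A gene was called where its adjusted p was below 0.01 in edgeR's quasi-likelihood test over 13525 genes, and 3.92% of all genes were called, 2.42% higher and 1.50% lower. With a threshold of 0.05, 8.67% of all genes and still 1 of the 8 chains were called. All 8 chains passed the filter on low counts. The median log2 fold change of the 8 chains was 0.03, beside 0.01 over all tested genes. In 6 of the 8 both DKO libraries lay beyond every WT library, 3 above and 3 below, where 39.1% of all tested genes showed such a gap, 19.6% above and 19.5% below. In bulk RNA a lower share of cells with a transcript and less transcript per cell cannot be told apart.

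**Figure D1:**
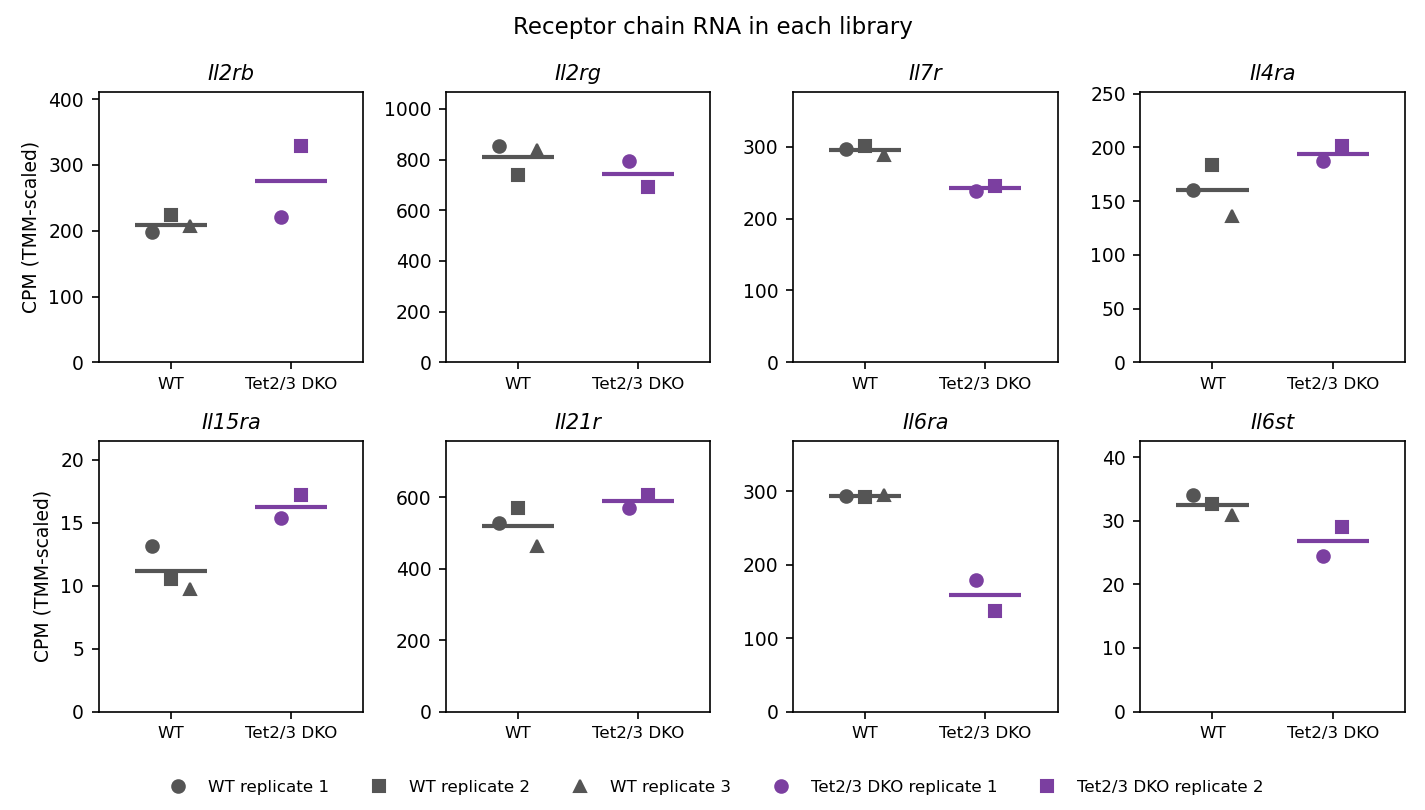
Level of each receptor chain in each library, in CPM after TMM scaling, on axes that start at 0. Points are single libraries, 3 WT in grey and 2 DKO in purple, and horizontal lines are group means. *Il6ra* shows the widest gap, with WT libraries from 292 to 294 and DKO libraries at 179 and 137, whereas for *Il2rb* one DKO library lies among the WT libraries.

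Levels of different genes were compared per kilobase of exon, as RPKM (CPM divided by the length of the merged exons). In WT cells *Il2rg* was the highest chain at 339.5 ± 26.0 RPKM (SD, n = 3), above 99.1% of tested genes. It was followed by *Il21r* at 157 ± 15.8, *Il7r* at 63.3 ± 1.41, *Il2rb* at 48.8 ± 3.07, *Il6ra* at 34.0 ± 0.131 and *Il4ra* at 26.7 ± 3.93 RPKM. *Il6st* at 2.93 ± 0.140 and *Il15ra* at 2.50 ± 0.394 RPKM were the lowest and lay near the middle of all tested genes, above 44.1% and 41.7% of them. The WT ranges of neighbours in this order did not overlap, except those of *Il6st* (2.78 to 3.06 RPKM) and *Il15ra* (2.20 to 2.95 RPKM).

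The order differed in DKO cells at 3 places. *Il2rb* (51.7 and 76.6 RPKM) stood slightly above *Il7r* (51.2 and 52.7 RPKM) in replicate 1 and well above it in replicate 2, and the ranges of this pair overlapped. *Il4ra* (31.2 and 33.5 RPKM) stood above *Il6ra* (20.7 and 15.9 RPKM), and *Il15ra* (3.45 and 3.86 RPKM) above *Il6st* (2.21 and 2.61 RPKM). When the length of the longest transcript was used in place of the merged exons, *Il15ra* stood above *Il6st* in WT too, at 4.81 against 3.74 RPKM. With that length *Il7r* stood above *Il2rb* in DKO replicate 1 and below it in replicate 2 (ratios of 1.28 and 0.887), and its DKO mean was the higher, 68.5 against 65.6 RPKM. The order of both pairs thus depends on the length taken, whereas the exchange of *Il4ra* and *Il6ra* was seen in the means with either length.

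**Figure D2:**
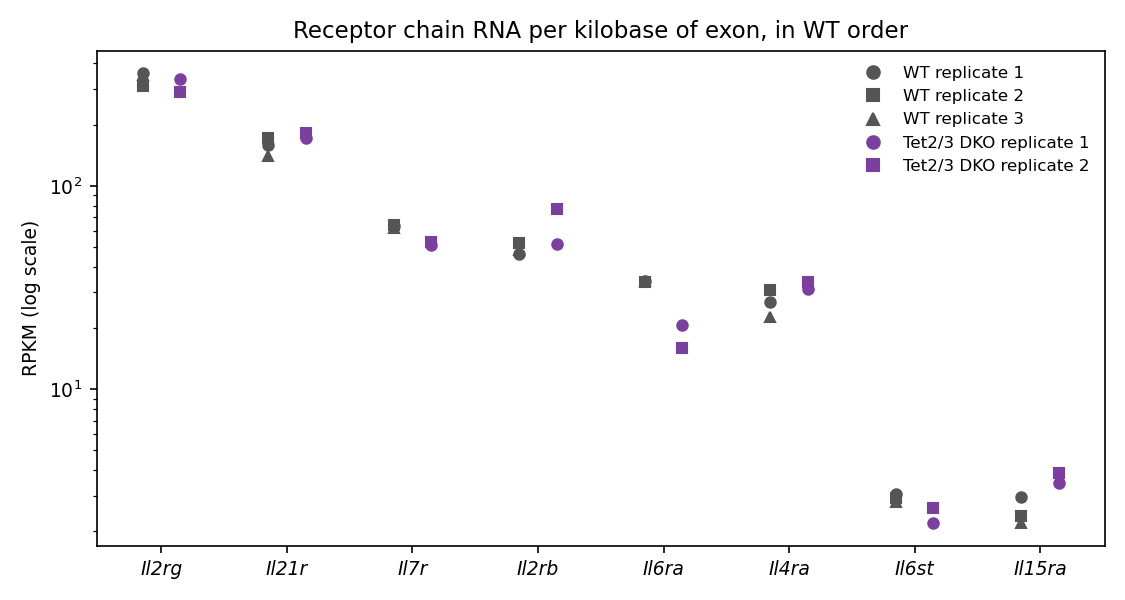
Level of each receptor chain per kilobase of merged exons, in RPKM on a log axis, ordered by the WT mean. Grey points are the 3 WT and purple points the 2 DKO libraries. The shared chain *Il2rg* is highest in every library and *Il6st*, the shared chain of the gp130 family, is among the lowest, at 2.21 to 3.06 RPKM.

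The gene of the IL-6 receptor alpha chain, *Il6ra* (ENSMUSG00000027947), lies on the minus strand of chromosome 3 of mm10 from 89864059 to 89913196. WT replicates 1, 2 and 3 stood at 294, 292 and 294 CPM, and DKO replicates 1 and 2 at 179 and 137. The WT libraries lay close together, and both DKO libraries lay far below them, with the lower value in replicate 2. The mean went from 293 ± 1.13 (SD, n = 3) to 158 ± 29.6 CPM (SD, n = 2), or by -0.89 on the log2 scale (standard error 0.12, 95% interval -1.15 to -0.63, adjusted p = 0.00184). Behind these values were 6935 to 8080 counts in WT and 3756 and 2453 in DKO libraries. The log2 fold change was -0.73 without DKO replicate 2 and -1.10 without replicate 1. Without WT replicate 1, 2 or 3 it stayed at -0.90 to -0.89, but the adjusted p of 0.0149 to 0.0194 was above the threshold. A short antisense gene, *Gm42809*, shares 2.80% of the exon bases of *Il6ra* and had 36 to 84 counts per library. Reads that fell on both genes were left out of the deposited counts.

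TET enzymes oxidise methylated cytosines, mostly in CpG dinucleotides, and the chains differ in CpG content. The bases before the start of *Il6ra* are shown beside those of *Il2rg*, the shared chain with the highest level. Both are the upstream 250 bases of RefSeq promoter windows of GRCm38.p6, written 5′ to 3′ on the strand of the gene, at chr3:89913197-89913446 and chrX:101268256-101268505 on the minus strand, with each CpG in capitals. Both end at the base before the gene's start in GENCODE, and the *Il6ra* window lies in an exon of the antisense gene *Gm42809*.
*Il6ra*: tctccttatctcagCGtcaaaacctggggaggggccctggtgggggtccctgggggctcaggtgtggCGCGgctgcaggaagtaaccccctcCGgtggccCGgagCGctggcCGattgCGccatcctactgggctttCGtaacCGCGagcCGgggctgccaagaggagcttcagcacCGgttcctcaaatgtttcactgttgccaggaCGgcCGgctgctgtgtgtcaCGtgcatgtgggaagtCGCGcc
*Il2rg*: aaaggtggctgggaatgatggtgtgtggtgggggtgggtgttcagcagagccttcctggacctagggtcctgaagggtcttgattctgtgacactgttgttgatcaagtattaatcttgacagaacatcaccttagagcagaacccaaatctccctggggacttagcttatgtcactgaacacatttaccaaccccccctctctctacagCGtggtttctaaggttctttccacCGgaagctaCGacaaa
The *Il6ra* window held 18 CpG dinucleotides, more than 78.3% of 32851 windows of the same length, and the *Il2rg* window held 3, more than 29.0% of them. Of the 8 chains 7 matched the table, all but *Il2rb*. The windows of *Il6st* and *Il21r* held 26 and 4, beside a median of 6 over all windows. Those of *Il4ra* (17), *Il7r* (1) and the 2 RefSeq starts of *Il15ra* (2 and 12) lie partly or wholly inside the gene as GENCODE draws it, since the starts differ between the annotations. Of the 7 matched chains *Il6ra* alone passed edgeR's test, and a relation of CpG count to the change was not tested. CpG content is a description of the letters, and methylation was not measured in the data used here.

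*Il6st* (ENSMUSG00000021756, plus strand of chromosome 13 from 112464070 to 112510086) had 34.0, 32.6 and 30.9 CPM in WT and 24.5 and 29.0 in DKO libraries. Both DKO libraries were below every WT library, by little in replicate 2. The log2 fold change of -0.28 (standard error 0.13, 95% interval -0.57 to 0.0047, adjusted p = 0.225) did not pass the test, and was -0.17 without DKO replicate 1 and -0.42 without DKO replicate 2. The per-length ratio of *Il6ra* to *Il6st* within a library was 11.1, 11.5 and 12.2 in WT and 9.38 and 6.08 in DKO libraries, where both values lay below the WT range. The log2 ratio differed by -0.62, with an exact permutation p of 0.1 (two-sided), the smallest that 3 against 2 libraries allow, and 0.35 after adjustment over the 7 ratios computed here. It was -0.31 without DKO replicate 2 and -0.93 without DKO replicate 1.

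The shared chain *Il2rg* (ENSMUSG00000031304, minus strand of chromosome X from 101264378 to 101268255) had 853, 739 and 839 CPM in WT and 796 and 691 in DKO libraries. The groups overlapped, since DKO replicate 1 lay inside the WT range. Its log2 fold change was -0.12 (standard error 0.10, 95% interval -0.35 to 0.10, adjusted p = 0.513). Without DKO replicate 1, the library with *Xist* counts, it was -0.23 (adjusted p = 0.190), without DKO replicate 2 it was -0.04 and without WT replicate 2 it was -0.19. Of the exon bases of *Il2rg*, 30.5% are also annotated to the locus *Gm20489*, which had at most 1 count in any library. Reads on those bases were left out of the counts, so that the per-length level of *Il2rg* is a low estimate.

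*Il7r*, the gene of the IL-7 receptor alpha chain (ENSMUSG00000003882, minus strand of chromosome 15 from 9505788 to 9530176) had 297, 301 and 288 CPM in WT and 239 and 246 in DKO libraries. The libraries of each genotype lay close together and the groups were well apart, yet the change was small, to 0.821 of the WT mean. The log2 fold change of -0.29 (standard error 0.08, 95% interval -0.47 to -0.11) had an adjusted p of 0.0608 and did not pass the threshold. It kept its size, from -0.32 to -0.27, with each library left out in turn. DESeq2's Wald test gave *Il7r* an adjusted p of 0.00760, past the threshold, in a test that called 6.91% of all genes.

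*Il2rb* (ENSMUSG00000068227, minus strand of chromosome 15 from 78479256 to 78495271) encodes the beta chain that IL-2 and IL-15 receptors share. It had 198, 224 and 207 CPM in WT and 222 and 329 in DKO libraries. Replicate 1 lay inside the WT range and replicate 2 lay above every other library. The log2 fold change was 0.39 (standard error 0.15, 95% interval 0.06 to 0.73, adjusted p = 0.148) and rested on replicate 2. Without that library it was 0.07 (adjusted p = 0.736), and without replicate 1 it was 0.65 and past the threshold, with an adjusted p of 0.000299. With a lone DKO library the fit takes its spread from the WT libraries alone and assumes that the lone library varies like them, and without replicate 1 it called 1311 genes. The summed level of NK and innate-like lymphocyte markers was 319 and 572 CPM in the DKO libraries against at most 43.9 in WT. Of these DKO sums *Nkg7* alone made up 295 and 522 CPM. The sort for TCRβ+, CD4+ cells was set to leave out most of these cells, and their part in the value of *Il2rb* was not tested.

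*Il15ra* (ENSMUSG00000023206, plus strand of chromosome 2 from 11705290 to 11734317) encodes the chain that binds IL-15 with high affinity and presents it to cells with the beta and gamma chains. It had 13.1, 10.5 and 9.77 CPM in WT and 15.4 and 17.2 in DKO libraries. Both DKO libraries were above every WT library. With 250 to 339 counts per library it was the least counted chain, and the log2 difference of 0.54 (standard error 0.18, 95% interval 0.14 to 0.94, adjusted p = 0.101) did not pass the test. The value was 0.73 with reads of the first strand alone and 0.36 with those of the second (adjusted p = 0.0468 and 0.345), although the library chemistry does not mark strand.

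*Il4ra* (ENSMUSG00000030748) and *Il21r* (ENSMUSG00000030745), which encode the private chains for IL-4 and IL-21, are neighbours on the plus strand of chromosome 7, from 125552120 to 125579474 and from 125603429 to 125633570. *Il4ra* had 160.4, 184 and 136 CPM in WT and 187 and 201 in DKO libraries. *Il21r* had 528, 569 and 465 CPM in WT and 571 and 606 in DKO libraries. For both genes WT replicate 3 was lowest, WT replicate 2 was highest of the WT libraries, and DKO replicate 1 lay only just above it. The log2 fold changes of 0.28 for *Il4ra* (standard error 0.12, 95% interval 0.00040 to 0.56, adjusted p = 0.216) and 0.18 for *Il21r* (standard error 0.10, 95% interval -0.05 to 0.40, adjusted p = 0.334) did not pass the test. Without WT replicate 3 they were 0.17 and 0.10.

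**Figure D3:**
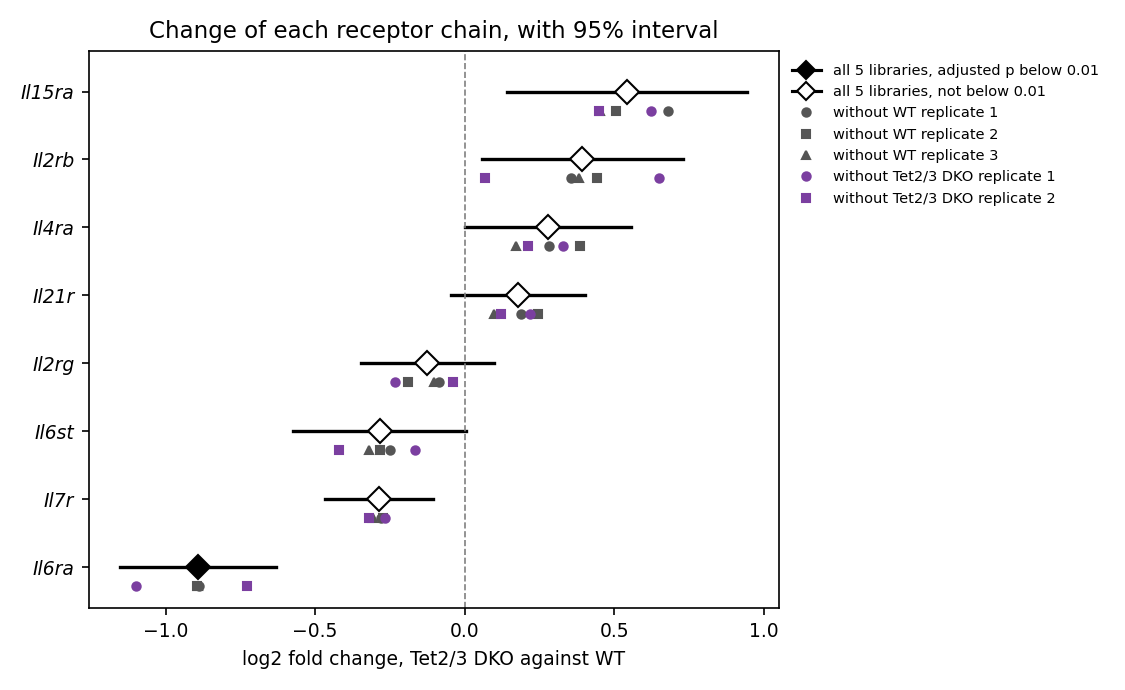
Log2 fold change of each receptor chain in DKO against WT cells, from edgeR's fit over all genes. Diamonds with lines are the value and 95% interval with all 5 libraries, filled where the adjusted p was below 0.01, and the small points beneath are the values with 1 library left out. *Il6ra* is the filled diamond at -0.89, and *Il2rb* moves from 0.07 to 0.65 with the DKO library that is left out.

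Ratios between chains within a library do not depend on how libraries are scaled to each other. The ratio of *Il7r* to *Il2rb*, which encode chains that both pair with the common gamma chain, was 1.38, 1.24 and 1.28 in WT and 0.991 and 0.688 in DKO libraries. Both DKO values lay below the WT range, with a log2 difference of -0.65 and an exact permutation p of 0.1 (two-sided, 0.35 adjusted over 7 ratios). It was -0.39 without DKO replicate 2 and -0.92 without DKO replicate 1. The ratio of *Il2rb* to *Il2rg* was 0.145 ± 0.0208 (SD, n = 3) in WT and 0.155 and 0.265 in DKO libraries, so that replicate 2 alone was above the WT range of 0.129 to 0.168. The ratios of *Il7r*, *Il4ra* and *Il21r* to *Il2rg* and of *Il15ra* to *Il2rb* overlapped between the genotypes, with log2 differences of -0.16, 0.41, 0.31 and 0.19 and exact permutation p-values of 0.6, 0.3, 0.3 and 0.5. With each library left out, the log2 difference ran from 0.11 to 0.88 for *Il2rb* to *Il2rg*, from -0.28 to -0.04 for *Il7r* to *Il2rg*, from 0.26 to 0.58 for *Il4ra* to *Il2rg* and from 0.16 to 0.45 for *Il21r* to *Il2rg*, with both ends set by the DKO libraries except the upper end for *Il4ra*, which was without WT replicate 2. That of *Il15ra* to *Il2rb* was -0.02 without DKO replicate 1. No ratio could reach 0.05 in this design.

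**Figure D4:**
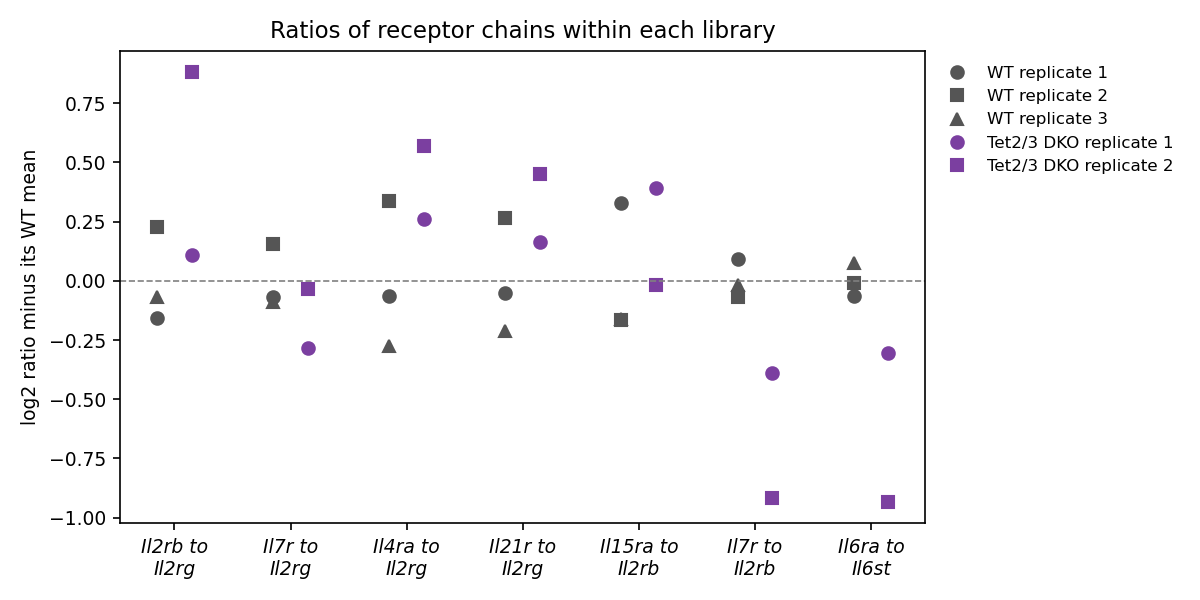
Ratios of receptor chains per kilobase of exon within each library, as log2 minus the WT mean of that ratio. Points are single libraries, 3 WT in grey and 2 DKO in purple. The ratios of *Il7r* to *Il2rb* and of *Il6ra* to *Il6st* lie below all WT libraries in both DKO libraries, further in replicate 2, and the other 5 ratios overlap.

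The genes with the pattern most like that of *Il6ra* were *Abcb9*, *Emilin1* and *Cdyl2*. Likeness was the root mean square distance between log2 CPM profiles over the 5 libraries, each centred on its WT mean, and was 0.018, 0.035 and 0.051 among 13508 genes compared, 26 of which lay within 0.1. *Abcb9*, a lysosomal peptide transporter, stood at 133, 132 and 134 CPM in WT and at 79.2 and 62.8 in DKO, *Emilin1*, an extracellular matrix protein, at 36.5 to 38.8 and at 22.5 and 17.2, and *Cdyl2*, a chromodomain protein, at 67.1 to 74.3 and at 44.2 and 32.7. By construction these genes share little scatter in WT and a larger drop in DKO replicate 2.

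Of 52 other genes of these pathways, 37 passed the filter on low counts, and 4 rose and 2 fell, beside the 2.42% and 1.50% of all tested genes. Their median log2 fold change was -0.11. Of 9 other receptor chains that pair with these chains or with gp130, 5 were tested and none passed in edgeR's test. *Il27ra*, the IL-27 chain that pairs with gp130, was the nearest, at 349, 347 and 323 CPM in WT and 282 and 263 in DKO (log2 fold change -0.32, adjusted p = 0.0514), and was named after its value was seen. None of the other tested chains had an unadjusted p below 0.05, and DESeq2 called *Il27ra*. *Cntfr* was at 0 in every library.

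Among 17 ligand genes 6 were tested, and *Il4*, which encodes the ligand of the *Il4ra* chain, rose. DESeq2 also called *Lif* higher, which edgeR's filter left out (2, 2 and 4 reads in WT, 6 and 61 in DKO). The WT libraries held 18, 16 and 13 reads of *Il4* and the DKO libraries 58 and 61, a difference of 2.32 on the log2 scale from few reads (standard error 0.35, adjusted p = 0.00404). *Il21* had 39, 48 and 28 reads in WT and 9 and 237 in DKO, with the DKO libraries on opposite sides of WT, and did not pass (adjusted p = 0.206). The RNA of *Il7* and *Il15*, cytokines made mainly by stromal and myeloid cells, came to at most 3 and 15 counts per library, and *Il9* and *Il27* were at 0. None of the 9 kinases and STATs passed in edgeR's test. The 2 with an unadjusted p below 0.05, which DESeq2 called, were *Stat5a* at 52.0 CPM in WT and 35.6 in DKO (log2 fold change -0.55, adjusted p = 0.0208) and *Jak2* at 27.0 and 39.4 CPM (log2 fold change 0.55, adjusted p = 0.0256). *Jak1* and *Jak3*, the kinases bound to the common gamma receptors, had log2 fold changes of -0.18 and -0.04.

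Of 9 targets and feedback genes of these receptors, 1 rose and 2 fell in edgeR's test, while DESeq2 called 3 higher and 3 lower, adding *Pim2*, *Socs1* and *Socs2*. *Socs3*, the inhibitor that binds gp130 and is induced by STAT3, rose from 16.1, 18.9 and 18.1 CPM in WT to 35.5 and 55.8 in DKO (log2 fold change 1.36, standard error 0.19, adjusted p = 0.00233). *Cish*, a feedback inhibitor induced by STAT5, fell from 25.4, 29.4 and 27.4 to 16.1 and 14.0 CPM (log2 fold change -0.86, standard error 0.14, adjusted p = 0.00624). *Bcl3*, an atypical IκB protein, fell from 139.9, 142 and 138 CPM in WT to 87.4 and 80.7 in DKO (log2 fold change -0.73, standard error 0.09, adjusted p = 0.00144). Of 8 transcription factors known to act on *Il7r* or *Il2rb*, 2 rose: *Gfi1*, a repressor of *Il7r*, from 11.7, 11.5 and 9.69 to 26.4 and 25.4 CPM (log2 fold change 1.24, standard error 0.15, adjusted p = 0.00114), and *Eomes*, an activator of *Il2rb*, with a log2 fold change of 5.32 (adjusted p = 1.02e-06). Without single WT libraries *Il4*, *Socs3*, *Cish*, *Bcl3* and *Gfi1* were above the threshold, with adjusted p-values from 0.0116 to 0.0417, while *Eomes* passed whichever library was left out. DESeq2 also called the transcription factor *Tbx21* higher.

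**Figure D5:**
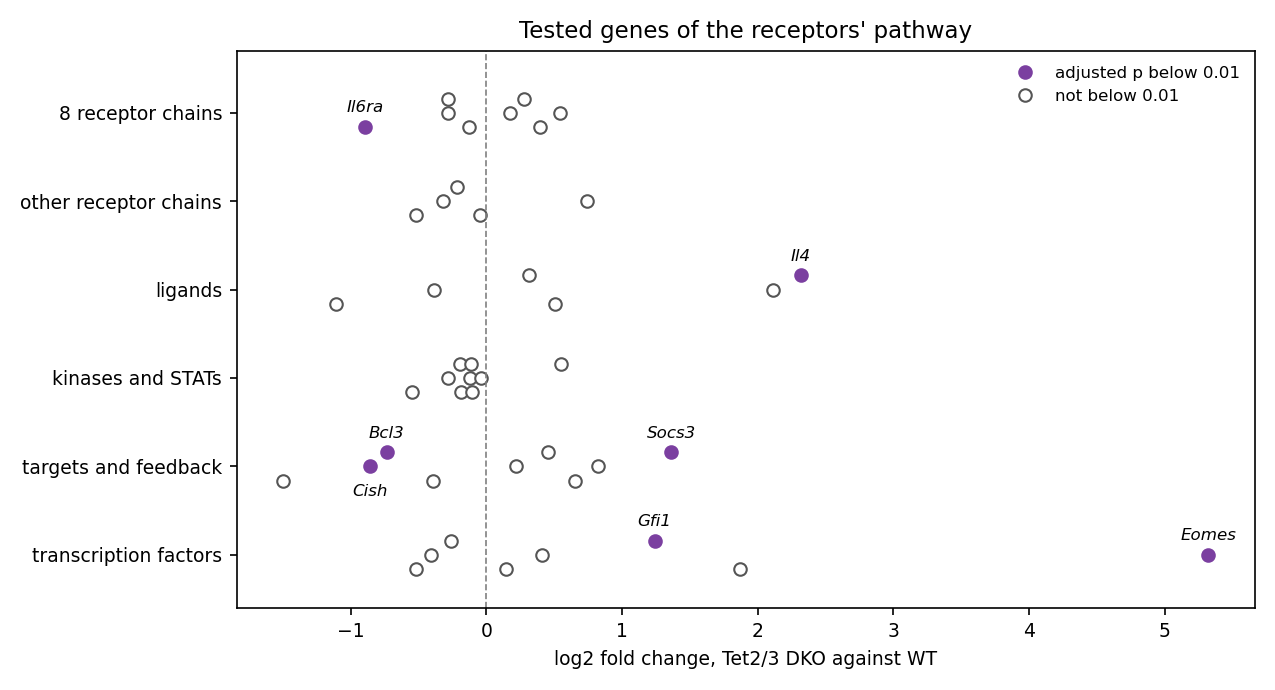
Log2 fold changes in DKO against WT cells of the 8 receptor chains and of the 37 tested genes of 5 lists from the same pathways. Each point is a gene, filled and named where edgeR's adjusted p was below 0.01, and points are spread vertically within a list for legibility only. The filled points are *Il6ra*, *Cish* and *Bcl3* on the lower side and *Il4*, *Socs3*, *Gfi1* and *Eomes* on the higher side.

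Markers of other lymphocytes moved with the genotype. The summed level of 7 NK and innate-like lymphocyte markers was 32.8 to 43.9 CPM in WT and 319 and 572 in DKO replicates 1 and 2. Most of the sum was *Nkg7*, which rose as did *Ncr1*, *Zbtb16* and *Klrb1c*, 4 of the 7, and the NK cell receptor *Ncr1* had 1, 0 and 0 reads in WT and 31 and 40 in DKO. The 5 memory-like T cell markers summed to 67.5 to 83.3 CPM in WT and to 412 and 521 in DKO, and *Cxcr3*, *Ly6c2* and *Eomes*, 3 of them, rose. DESeq2 called *Ccl5* and *Cd44* higher too. For both lists DKO replicate 2, which had the highest *Il2rb* and the lowest *Il6ra*, was higher than replicate 1. The 5 regulatory T cell markers, a lineage that depends on IL-2, summed to 347 to 415 CPM in WT and to 265 and 301 in DKO, and *Foxp3* fell (52.3 to 21.1 CPM, log2 fold change -1.31, adjusted p = 0.00191). The highest of the 5 was *Tnfrsf18* (edgeR's adjusted p = 0.0394), which DESeq2 called lower. *Il2ra*, *Ctla4* and *Ikzf2* overlapped between the genotypes, each with 1 DKO library above and 1 below every WT library. The 3 gamma-delta T cell markers summed to 17.0 to 20.3 CPM in WT and to 77.7 and 119 in DKO, where *Tcrg-C1* rose and made up the difference. *Trdc* overlapped between the genotypes, and *Sox13* was at 0.947 to 1.08 CPM in WT and 0.238 and 0.224 in DKO (adjusted p = 0.0361). The sort for TCRβ+, CD4+ cells that did not bind the tetramer was set to leave out NK, gamma-delta and CD1d-restricted NKT cells too. The part of such cells in the changes of *Il6ra*, *Il7r* and *Il2rb* was not tested.

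Further lists covered other cells that the sort was set to leave out. The 4 myeloid markers summed to 6.19 to 11.6 CPM in WT and to 19.8 and 44.3 in DKO, mostly from *Lyz2*, and none passed in edgeR, DESeq2 or limma voom, while 2 had an unadjusted p below 0.05. The 4 thymic epithelial markers summed to 9.09 to 12.3 CPM in WT and to 10.6 and 34.0 in DKO, most of it *Epcam*. *Foxn1* and *Krt5* had at most 3 and 2 reads in a WT library and 0 in both DKO libraries. Of the 2 that edgeR tested, neither passed with any of the 3 tools, and both had an unadjusted p below 0.05 in opposite directions, *Epcam* with a log2 fold change of 1.16 and *Krt8* with -2.52. The 3 B cell markers summed to at most 3.24 CPM in any library, and none passed with any tool or at an unadjusted p of 0.05. The 6 markers of double-positive thymocytes, in which *Il7r* is normally off, summed to 86.9 to 96.3 CPM in WT and to 48.0 and 49.9 in DKO. Most of this was *Cd8b1*, which fell (log2 fold change -1.29, adjusted p = 0.000168). *Dntt* stood at 17.2, 23.6 and 19.2 CPM in WT and 13.6 and 14.2 in DKO (adjusted p = 0.106). *Rag1* was at 0 in every library, and *Rag2* and *Ptcra* had at most 1 and 3 reads, so that the sum does not show the presence of such cells. *Cd8b1* also made up most of the 2 CD8 T cell markers, which summed to 68.8 to 77.1 and to 34.3 and 35.8 CPM. The other member, *Cd8a*, lay on the opposite side, at 2.71, 2.91 and 5.39 CPM in WT and 5.77 and 8.67 in DKO (adjusted p = 0.128). The part of these cells was not tested either.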

How the data were processed

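RNA of sorted CD4 SP thymocytes was sequenced by SMART-seq from 3 WT and 2 *Tet2/3* DKO mice. The authors trimmed reads with fastp 0.21.0, aligned them with STAR 2.7.5a to mm10 (annotation GRCm38.100) and deposited for each library the count of uniquely mapped reads on each gene, neither normalized nor pooled. Reads on several genes or places were not counted, and rows that name no gene were left out (of uniquely mapped reads, 3.94% to 6.45% on no feature and 7.29% to 7.54% on several genes). The clonotype files were not used here.

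Genotype and replicate were taken from the labels. Symbols for 55227 of 55487 identifiers came from GENCODE M21, as did mm10 coordinates and exon lengths. The counts without regard to strand, with 49.8% to 50.2% of stranded reads on the first strand, were tested with edgeR 4.0.16 in R 4.3.3 (quasi-likelihood fit with the newer dispersion moderation, TMM scaling, filterByExpr by genotype, Benjamini-Hochberg adjustment over 13525 genes, threshold 0.01). The deposited counts are whole numbers of reads without molecular identifiers, so that they are not independent molecules. Standard errors are the log2 fold change divided by the root of F. RPKM is TMM-scaled CPM per kilobase of merged exons. Ratios of chains were compared with exact permutation tests. The alternatives were DESeq2 1.42.0, limma voom (limma 3.58.1), other scaling, filters, strand columns, moderation, threshold and gene length, the replicate block, and each library left out.

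In a test on simulated data, 100 of 100 genes given a log2 difference of 2 were called. Of those given a difference of 1, 84 of 100 were called. Of 13010 tested genes 10 were called wrongly. Set against the 84 and 100 correct calls, these are a larger share of calls than the threshold of 0.01 aims at. No changed gene was given a difference below 1. With all libraries the 8 chains had changes smaller than 1 in size, so the recovery of such changes was not tested. The members and lists were chosen with earlier results of these data known. Named are all 8 chains, at most 4 called genes of each list by size of change, genes needed for small counts, and the 3 genes most like a called chain. Each group holds few mice, and p-values cover the spread between them only.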

Additional observations from a re-analysis of the deposited data

How the results depend on the processing

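Of 136 values of the 8 chains under 17 alternatives each, 131 kept their direction and their side of the threshold, 3 for *Il6ra* (each WT library left out) no longer passed, and 2 newly passed, *Il7r* with DESeq2 and *Il2rb* without DKO replicate 1, where the lone DKO library is assumed to vary like the WT libraries. None changed sign. DESeq2 called 1027 of 14859 genes (6.91%), 2 of the 8 chains and 14 of the 52 other pathway genes. With edgeR these were 530 of 13525 genes (3.92%), 1 chain and 6 of the 37 pathway genes that its filter left. A threshold of 0.05 gave 1173 genes (8.67%) and 12 pathway genes with edgeR. With 1 library left out, the count of genes ran from 110 (without WT replicate 2) to 1311 (without DKO replicate 1), that of chains from 0 to 2 and that of pathway genes from 1 to 13. It was 110 to 152 without a WT library and 1148 to 1311 without a DKO library, and the cause of these differences was not tested. Replicate numbers are shared between the genotypes, but the mice are different animals, and the deviations of same-numbered libraries from their group means correlated at 0.0151 and 0.0045. With the replicate block the counts were 358 genes, 1 chain and 3 pathway genes. The log2 ratio of *Il15ra* to *Il2rb* turned from 0.19 to -0.0163 without DKO replicate 1 and reached 0.39 without DKO replicate 2. The other 6 ratios kept their direction under all alternatives tried. Of the 17 ligand genes, 6 had enough reads to be tested.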
